A study of Mus musculus with 6 samples.

Results

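Chromatin modifiers are the enzymes that add or remove methyl and acetyl groups on histones and DNA, together with the proteins that read these groups and the motors that move nucleosomes. The 61 genes described here were chosen by symbol alone. They are the members of the Kdm, Kmt, Setd, Hdac, Sirt, Kat, Brd, Dnmt, Tet, Ezh and Chd series in a deposited expression table of 12615 rows, taken from rows with 1 gene identifier. No row carries a Kmt symbol, because those genes stand under older symbols. Of 69 rows whose symbol fits, 4 on chromosome 17 from 30 Mb on, 3 with several identifiers and a second row of Sirt3 were left out. All 61 are annotated as protein coding in the GENCODE M21 mouse annotation.

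The RNA came from Ba/F3 cells, a mouse pro-B cell line that grows on interleukin-3 (IL-3). The hCALR-del52 group expressed human calreticulin with the del52 deletion, a frameshift mutation known from myeloproliferative neoplasms, and the hCALR group expressed the unmutated human protein. Both groups carried the pMSCV-IRES-GFP vector and grew with IL-3 at 1 ng/ml, and each had 3 samples. The table holds 1 FPKM value per group and row (fragments per kilobase of transcript, scaled to all mapped fragments), so no SD over samples can be given and the depth is unknown. All FPKM values are the authors' group values, and FPKM is scaled by length, so levels may be compared between genes. Construct and cell line go together in this design, and the labels do not say whether a line is a pool or a clone, so that an effect of the mutation and a difference between lines cannot be told apart. Nor do the labels say whether the replicates were separate cultures, so that the authors' p-values may cover technical spread only. Of 12 pro-B and pre-B cell markers looked for, Cd79b was at 5.09 FPKM in hCALR-del52 cells and 8.64 FPKM in hCALR cells. For the other 11 no row with 1 gene identifier was found. The blood cell gene Ptprc was at 60.1 and 83.1 FPKM in hCALR-del52 and hCALR cells, and for Spi1, also looked for, no such row was found.

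Methyl and acetyl groups on chromatin are kept in balance by opposed enzymes. Acetyltransferases such as the KAT proteins loosen the contact of histones with DNA, and deacetylases of the HDAC and sirtuin families reverse this. Histone methylation is written by SET domain enzymes and erased by KDM demethylases, while DNA methylation is written by DNMT enzymes and oxidised by TET enzymes. In blood cells several of these genes, among them Dnmt3a, Tet2 and Ezh2, are known as recurrent targets of mutation in myeloid disease, also alongside mutant calreticulin.

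None of the 61 members differed between hCALR-del52 and hCALR cells at the authors' q under 0.05, with 0 higher and 0 lower. Over all 12615 rows 1.84% were called in the same test (Cuffdiff), 0.872% higher and 0.967% lower in hCALR-del52 cells. The other call rules were stricter, so that the count of members could only stay at 0. Of all rows, 1.26% had a q under 0.01, and 1.36% passed when the adjustment was repeated over every row. A q under 0.05 with at least a 2-fold difference was found for 1.66%. At these backgrounds a list of this length holds few calls or no call, so the counts say little about the family by itself. At an unadjusted p under 0.05 in the authors' deposited table, 1 of 61 members passed, the remodeller gene Chd5, against 4.90% of all rows. The median log2 ratio of the members, taken as log2 of (FPKM + 1) in hCALR-del52 over hCALR, was 0.02, beside -0.01 over 9667 genes with a symbol. The mean of the members was -0.01, opposite in sign to their median, and 0.0034 once all ratios were shifted to a median of 0 over the rows (rescaled). Of the members, 33 had a ratio above 0 and 28 below, or 35 and 26 when rescaled, and 58 lay within 0.5 of 0. That was 95.1% of the members, beside 93.0% of the 9667 genes. Their summed level was 1816 FPKM in hCALR-del52 cells and 1836 FPKM in hCALR cells.

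**Figure D1:**
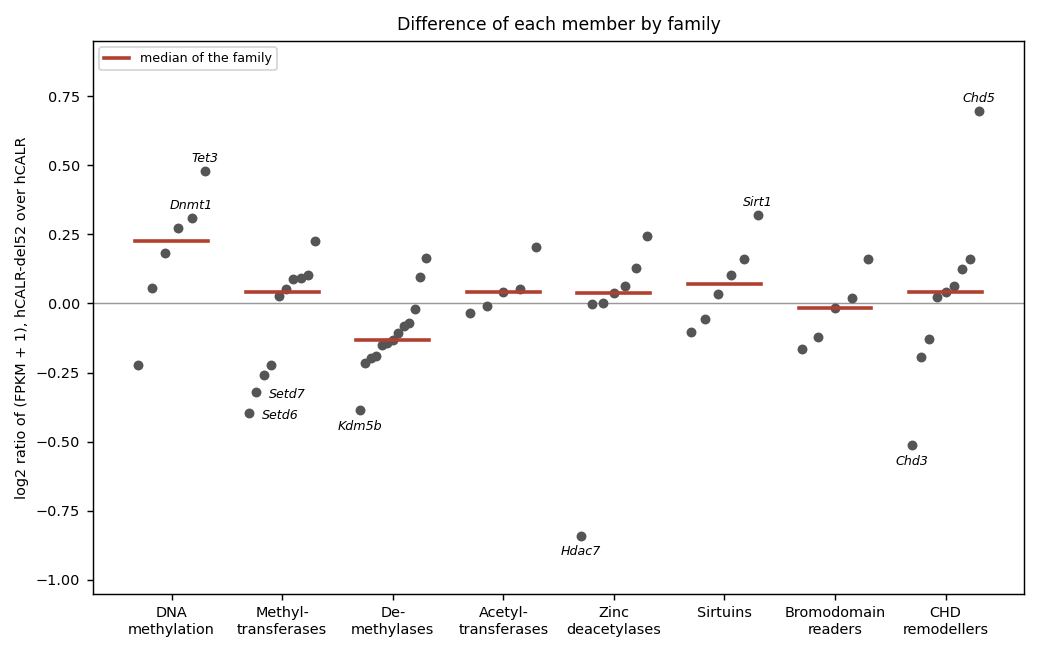
Log2 ratio of (FPKM + 1), hCALR-del52 over hCALR, for each of the 61 members by family, with 1 point per gene and a bar at the family median. Chd5 at 0.70 and Hdac7 at -0.84 lie farthest from 0, and no member was called.

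A change had to be large to be called in this table. The smallest absolute log2 fold change of any called row was 0.81, a 1.75-fold difference, and 0 of 860 rows from 0.5 up to 0.8 were called. Between 0.8 and 1, 23 of 273 rows were called, and between 1 and 1.5, 77 of 288. The authors' deposited table gave 57 of the members an absolute log2 fold change under 0.5, where 0 of 10914 rows were called. Only Chd5 and Hdac7 reached the smallest called change. The other 59 members lay under 1.75-fold, where no row was called, which is not the same as an absence of change. The 1.75-fold value is the smallest called change seen here, and a detection limit was not computed.

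**Figure D2:**
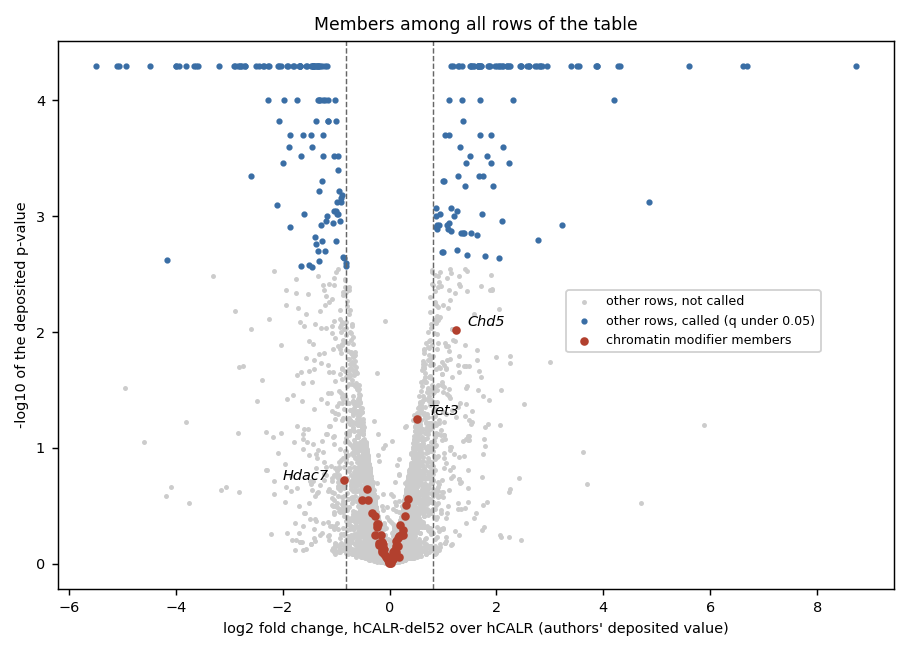
Deposited p-value (as -log10) against the deposited log2 fold change (hCALR-del52 over hCALR) for all rows with a finite value, with the members in red and called rows in blue. The dashed lines mark the smallest called change, 0.81 to either side, and Chd5 and Hdac7 are the members beyond them.

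Chd5 and Hdac7 had the largest differences among the members. Chd5 encodes a chromodomain ATPase of the NuRD type that is known mainly from neurons and testis (ENSMUSG00000005045, chromosome 4, 152338651 to 152390246, mm10). It was at 1.94 FPKM in hCALR-del52 cells and 0.815 FPKM in hCALR cells, a 2.38-fold higher value in hCALR-del52 cells. In the test of the authors' deposited table p was 0.00955 and q was 0.129. It was the member with the lowest level, and both values lie near the low end of the table. Of 198 rows within 2-fold of its mean level and with at least its change, 76 were called.

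Hdac7 encodes a class IIa deacetylase, a signal-regulated corepressor known from lymphocyte development (ENSMUSG00000022475, chromosome 15, 97784355 to 97844502). It was at 30.8 FPKM in hCALR-del52 cells and 55.9 FPKM in hCALR cells, which is 1.82-fold higher in hCALR. Its log2 fold change of -0.86 had p = 0.189 and q = 0.820 in the authors' deposited table. Of 66 rows within 2-fold of its mean level and with at least its change, 29 were called. Tet3 had a smaller fold with a smaller p: 15.1 FPKM in hCALR-del52 cells and 10.6 FPKM in hCALR cells, with p = 0.0563 and q = 0.430 in the authors' deposited table. Its test statistic there was 1.14, against -0.70 for Hdac7, although the fold of Hdac7 was larger.

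The RefSeq promoter windows of these genes (GRCm38, 250 bases before to 50 after the start) are shown because they belong to the members farthest from equality, with Hdac5 added as the class IIa partner of Hdac7. Chd3, also far from equality, has no window in the table used. Capitals mark matches on either strand to 5 motifs: the GC box GGGCGG, the CCAAT box CCAAT, the TATA box TATAAA, the ETS core CCGGAAGT and the E-box CACGTG. None of these overlapped another in the windows shown. The windows are chr4:152338401-152338700 on the plus strand for Chd5, and on the minus strand chr6:83441629-83441928 for Tet3, chr15:97844453-97844752 for Hdac7 and chr11:102230123-102230422 for Hdac5.
Chd5: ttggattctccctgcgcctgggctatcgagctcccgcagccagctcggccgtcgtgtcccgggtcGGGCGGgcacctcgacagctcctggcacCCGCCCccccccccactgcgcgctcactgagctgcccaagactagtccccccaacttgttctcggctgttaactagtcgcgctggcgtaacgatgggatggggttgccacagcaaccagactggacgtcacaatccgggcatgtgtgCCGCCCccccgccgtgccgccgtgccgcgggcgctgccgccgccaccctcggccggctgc
Tet3: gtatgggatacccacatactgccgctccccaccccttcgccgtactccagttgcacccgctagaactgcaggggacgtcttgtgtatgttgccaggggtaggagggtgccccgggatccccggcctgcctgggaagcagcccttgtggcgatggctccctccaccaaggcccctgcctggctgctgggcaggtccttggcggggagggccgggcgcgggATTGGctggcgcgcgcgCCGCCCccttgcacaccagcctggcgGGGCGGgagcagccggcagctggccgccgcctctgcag
Hdac7: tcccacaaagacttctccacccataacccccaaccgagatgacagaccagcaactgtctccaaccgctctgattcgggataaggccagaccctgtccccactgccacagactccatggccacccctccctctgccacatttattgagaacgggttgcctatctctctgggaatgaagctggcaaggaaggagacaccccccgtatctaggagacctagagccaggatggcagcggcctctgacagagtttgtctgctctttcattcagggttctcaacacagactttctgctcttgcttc
Hdac5: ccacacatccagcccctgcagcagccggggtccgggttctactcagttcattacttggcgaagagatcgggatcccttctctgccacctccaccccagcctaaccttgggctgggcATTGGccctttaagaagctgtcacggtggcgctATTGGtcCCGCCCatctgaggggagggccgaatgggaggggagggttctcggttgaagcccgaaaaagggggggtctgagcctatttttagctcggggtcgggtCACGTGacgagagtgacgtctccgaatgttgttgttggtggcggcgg

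The Chd5 window held 32 CpG dinucleotides and 3 GC boxes, and the Tet3 window 22 CpG, 2 GC boxes and a CCAAT box. The Hdac7 window held 6 CpG and no match to the 5 motifs, and the Hdac5 window 18 CpG, a GC box, 2 CCAAT boxes and an E-box. Hdac7 has 4 windows with 5 to 35 CpG, of which the one nearest the outer end of the locus is shown, and Chd5 has 2. The start site of the Tet3 window lies 15383 bases inside the locus of the table. The expression data do not say which start was used.

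Promoters of the members as a group were rich in CpG compared with all RefSeq windows. Those windows were not limited to genes expressed in these cells, and expressed genes alone were not compared. Whether the richness is particular to the members was therefore not tested. Of the 61 members, 50 matched the RefSeq table, with 76 windows. Their median was 23.5 CpG per 300-base window, beside 7 over all 32851 windows, and 84.2% of them held at least 10 CpG, beside 43.5%. A GC box was found in 65.8% of member windows and 35.7% of all windows. For the CCAAT box these shares were 38.2% and 37.4%, for the TATA box 1.32% and 13.6%, and for the ETS core 6.58% and 3.89%. The E-box was found in 9.21% of member windows and 7.15% of all windows. Several windows can belong to the same gene and overlap, and a match is a description, not a binding site. The members lie on 20 chromosomes, at most 6 on any of them.

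**Figure D3:**
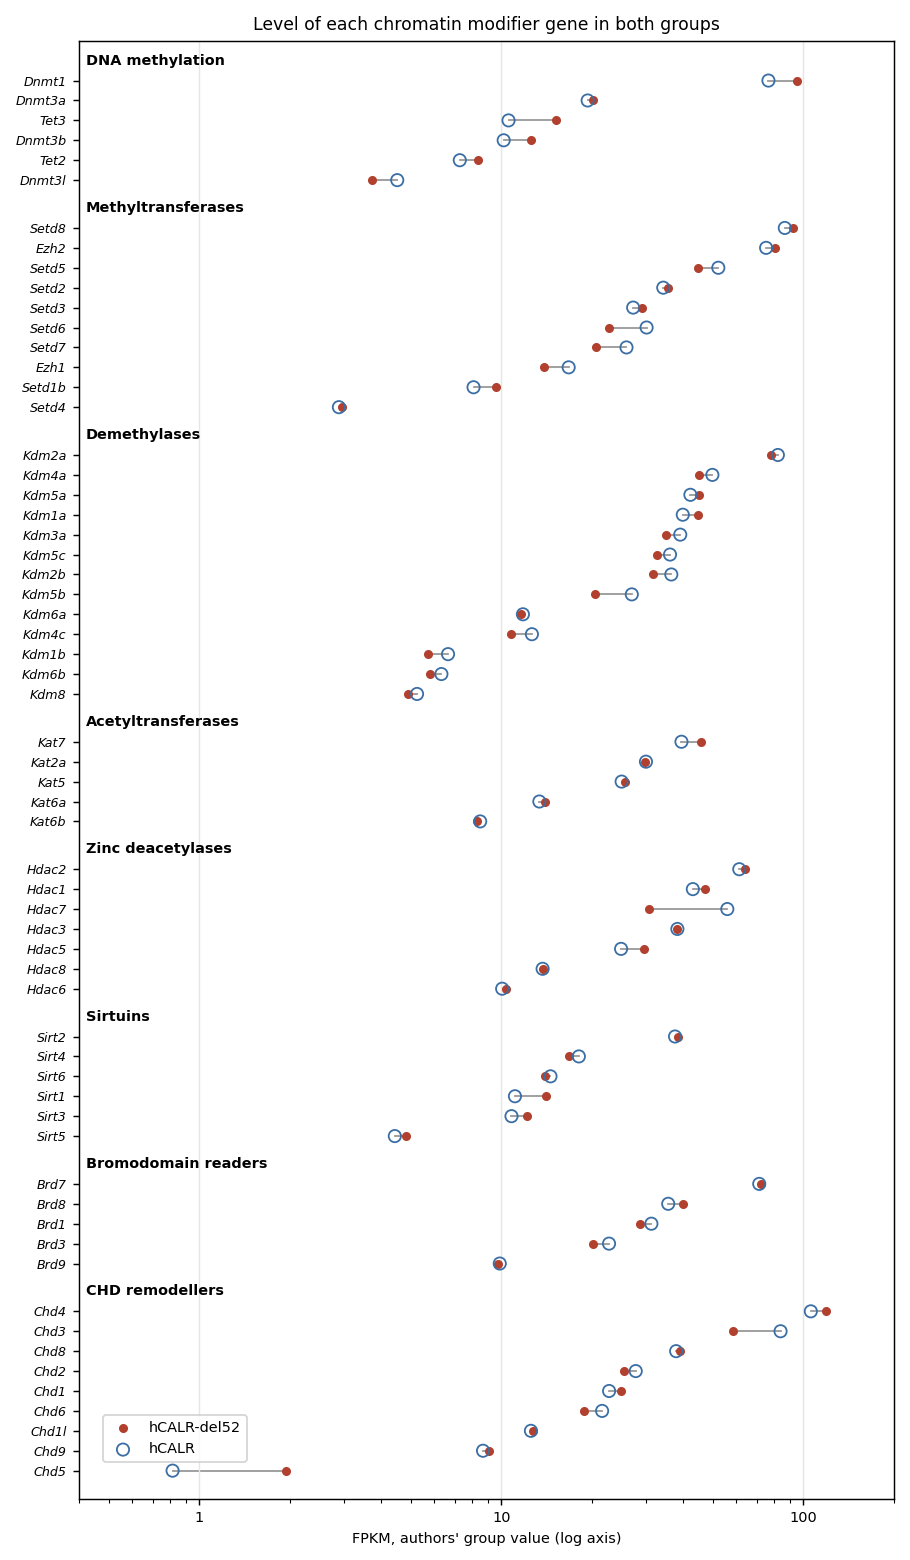
FPKM of each member on a log axis, with filled points for hCALR-del52 cells and open rings for hCALR cells, grouped by family and ordered by level. Levels run from Chd5 (1.94 and 0.815 FPKM in hCALR-del52 and hCALR) to Chd4 (118 and 106 FPKM), and Hdac7, Chd3 and Chd5 show the longest lines between both groups.

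Nearly all members were expressed well above the low end of the table. The median level was 22.7 FPKM in hCALR-del52 cells and 25.0 FPKM in hCALR cells, beside 18.04 and 18.4 FPKM over the 9667 genes. A mean of at least 5 FPKM was found for 57 of 61 members, or 93.4%, beside 84.3% of the 9667 genes. The most abundant were Chd4, Setd8, Dnmt1, Kdm2a and Ezh2. With no spread over samples, neighbours in this order cannot be told apart.

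Among the 6 genes of DNA methylation, 5 had a ratio above 0 and 1 below, with a family median of 0.23 on the log2 scale, and 0 were called. Dnmt1, the enzyme that copies methylation at replication, was at 95.1 FPKM in hCALR-del52 cells and 76.6 FPKM in hCALR cells (p = 0.309 in the authors' deposited table). The de novo enzyme Dnmt3a was at 20.1 FPKM in hCALR-del52 cells and 19.3 FPKM in hCALR cells. Dnmt3b, the other de novo enzyme, was at 12.5 and 10.2 FPKM in hCALR-del52 and hCALR cells. Dnmt3l, a cofactor without catalytic activity known from germ cells, stood on the other side of 0, at 3.73 FPKM in hCALR-del52 cells and 4.52 FPKM in hCALR cells. Tet2 was at 8.39 FPKM in hCALR-del52 cells and 7.28 FPKM in hCALR cells. The 3 catalytic DNMT genes summed to 128 FPKM in hCALR-del52 cells and 106 FPKM in hCALR cells, and Tet2 with Tet3 to 23.5 and 17.8 FPKM. Writers and erasers of DNA methylation thus both had the higher sum in hCALR-del52 cells, by 1.20 and 1.32 times, without a called gene.

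The 10 methyltransferase genes, all of the Setd and Ezh series, divided into 6 above and 4 below 0. Their median was 0.04 and their mean -0.06, with 0 called. Setd8, which writes the first methyl group on lysine 20 of histone H4, was at 92.3 FPKM in hCALR-del52 cells and 86.7 FPKM in hCALR cells. Ezh2, the main catalytic subunit of Polycomb repressive complex 2, was at 80.8 FPKM in hCALR-del52 cells and 75.2 FPKM in hCALR cells. Its less active relative Ezh1 was at 13.8 FPKM in hCALR-del52 cells and 16.7 FPKM in hCALR cells, so that the pair lay on opposite sides of 0. Setd2, which writes trimethylation of lysine 36 of histone H3, was at 35.7 FPKM in hCALR-del52 cells and 34.3 FPKM in hCALR cells. Setd1b, the catalytic subunit of a COMPASS complex acting on lysine 4 of histone H3, was at 9.61 and 8.08 FPKM in hCALR-del52 and hCALR cells. The members below 0 included Setd6, known to methylate the NF-kappaB subunit RelA, at 22.7 FPKM in hCALR-del52 cells and 30.2 FPKM in hCALR cells. They also included Setd7, which acts on histone H3 and on other proteins, at 20.6 FPKM in hCALR-del52 cells and 25.9 FPKM in hCALR cells. Setd5, a SET domain gene of this group, was at 44.7 FPKM in hCALR-del52 cells and 52.2 FPKM in hCALR cells. Setd3, which methylates a histidine of actin, was at 29.2 FPKM in hCALR-del52 cells and 27.3 FPKM in hCALR cells. Setd4 was the least abundant, at 2.97 and 2.90 FPKM in hCALR-del52 and hCALR cells. The smallest p of this family in the authors' deposited table was 0.227, for Setd6.

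Of 13 demethylase genes, 11 had a ratio below 0 and 2 above, with a median of -0.13 and 0 called. These differences were small: 11 of 13 lay within 0.2 of 0 on the log2 scale. Of the 9667 genes with a symbol, 68.3% lay within 0.2 of 0, and 5027 had a ratio below 0. Kdm5b, which removes methyl groups from lysine 4 of histone H3, was the farthest, at 20.4 FPKM in hCALR-del52 cells and 27.01 FPKM in hCALR cells, with p = 0.280 in the authors' deposited table. Its relatives differed in side, with Kdm5a at 45.2 FPKM in hCALR-del52 cells and 42.2 FPKM in hCALR cells and Kdm5c at 32.9 and 36.1 FPKM. Kdm1a (LSD1), a flavin-dependent demethylase of the CoREST complex, was the other member above 0, at 44.8 FPKM in hCALR-del52 cells and 39.8 FPKM in hCALR cells. Kdm2a, a CpG-binding demethylase, was the most abundant at 78.2 and 82.3 FPKM in hCALR-del52 and hCALR cells, and Kdm8 the least at 4.91 and 5.25 FPKM. The 5 demethylases of lysine 4 summed to 149 FPKM in hCALR-del52 cells and 152 FPKM in hCALR cells. For lysine 9, Kdm3a, Kdm4a and Kdm4c summed to 90.9 and 102 FPKM, and for lysine 36, Kdm2a, Kdm2b, Kdm4a and Kdm4c to 166 and 181 FPKM, each in hCALR-del52 and hCALR cells. Both sums leave out Kdm4b, which was not a member because of its position on chromosome 17. Kdm4b was at 19.3 FPKM in hCALR-del52 cells and 39.1 FPKM in hCALR cells. On lysine 27 the erasers Kdm6a and Kdm6b summed to 17.4 FPKM in hCALR-del52 cells and 18.1 FPKM in hCALR cells, against 94.6 and 91.9 FPKM for the writers Ezh1 and Ezh2.

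Of 5 acetyltransferase genes, 3 lay above and 2 below 0 (4 and 1 when rescaled), with a median of 0.04 and 0 called. Kat7 (HBO1), an acetyltransferase linked to replication origins, was the most abundant at 45.6 FPKM in hCALR-del52 cells and 39.4 FPKM in hCALR cells. Kat2a (GCN5), the acetyltransferase of the SAGA complex, was nearly level at 29.9 FPKM in hCALR-del52 cells and 30.1 FPKM in hCALR cells. Kat6b, a MYST family member, was the least abundant at 8.28 and 8.50 FPKM in hCALR-del52 and hCALR cells. Kat5 (TIP60), the acetyltransferase of the NuA4 complex, was at 25.7 FPKM in hCALR-del52 cells and 25.0 FPKM in hCALR cells, and Kat6a (MOZ), a target of leukaemia translocations, at 13.9 and 13.3 FPKM. The smallest p of the family in the authors' deposited table was 0.569, for Kat7.

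Of 7 zinc-dependent deacetylase genes, 5 lay above and 2 below 0 (6 and 1 when rescaled), with a median of 0.04, a mean of -0.05 and 0 called. The class I genes differed little. Hdac2 was at 64.0 FPKM in hCALR-del52 cells and 61.3 FPKM in hCALR cells, and Hdac1 at 47.1 and 43.0 FPKM, and these enzymes work together in the Sin3, NuRD and CoREST complexes. Hdac3, the enzyme of the NCoR complex, was at 38.2 FPKM in both groups. Hdac8, the class I enzyme known to deacetylate cohesin, was at 13.7 FPKM in both groups as well. Hdac6, a mostly cytoplasmic tubulin deacetylase, was the least abundant at 10.3 FPKM in hCALR-del52 cells and 10.1 FPKM in hCALR cells. Hdac5, like Hdac7 a class IIa enzyme, lay on the opposite side from it, at 29.7 FPKM in hCALR-del52 cells and 24.9 FPKM in hCALR cells (p = 0.517 in the authors' deposited table). Without Hdac7 the family summed to 203 FPKM in hCALR-del52 cells and 191 FPKM in hCALR cells, and with it to 234 and 247 FPKM.

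Of 6 sirtuin genes, NAD-dependent deacylases, 4 lay above and 2 below 0, with a median of 0.07 and 0 called. Sirt1, a nuclear deacetylase known to act on p53, was the farthest from 0, at 14.1 FPKM in hCALR-del52 cells and 11.1 FPKM in hCALR cells (p = 0.275 in the authors' deposited table). Sirt2, mostly cytoplasmic, was the most abundant at 38.5 FPKM in hCALR-del52 cells and 37.6 FPKM in hCALR cells, and the mitochondrial Sirt5 the least at 4.84 and 4.43 FPKM. The nuclear Sirt6, which acts on histone H3 at telomeres and in DNA repair, was at 13.9 FPKM in hCALR-del52 cells and 14.5 FPKM in hCALR cells. The mitochondrial genes Sirt3, Sirt4 and Sirt5 summed to 33.7 FPKM in hCALR-del52 cells and 33.3 FPKM in hCALR cells. This sum leaves out the second row of Sirt3, at 6.04 FPKM in hCALR-del52 cells and 5.34 FPKM in hCALR cells.

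Of 5 bromodomain genes, whose proteins bind acetylated lysine, 2 lay above and 3 below 0, with a median of -0.01 and 0 called. Brd7, a subunit of a SWI/SNF complex, was the most abundant at 72.3 FPKM in hCALR-del52 cells and 71.4 FPKM in hCALR cells, and Brd9, a subunit of another, the least at 9.76 and 9.87 FPKM. Brd8, a subunit of the NuA4 complex, was at 39.97 FPKM in hCALR-del52 cells and 35.7 FPKM in hCALR cells. The BET protein gene Brd3 was at 20.1 FPKM in hCALR-del52 cells and 22.7 FPKM in hCALR cells, and Brd1, a scaffold of MYST acetyltransferases, at 28.8 and 31.4 FPKM. All 5 lay within 0.2 of 0 on the log2 scale, as did 68.3% of the 9667 genes with a symbol.

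Of 9 CHD remodeller genes, 6 lay above and 3 below 0, with a median of 0.04 and 0 called. Chd4, the main ATPase of the NuRD complex, was the most abundant of all members at 118 FPKM in hCALR-del52 cells and 106 FPKM in hCALR cells. Chd3, the alternative ATPase of the same complex, was at 58.5 FPKM in hCALR-del52 cells and 84.0 FPKM in hCALR cells, which is 1.43-fold higher in hCALR, with p = 0.284 in the authors' deposited table. Chd1, which binds trimethylated lysine 4 of histone H3, was at 24.8 FPKM in hCALR-del52 cells and 22.7 FPKM in hCALR cells, its relative Chd2 at 25.4 and 27.8 FPKM, and Chd8 at 39.0 and 37.9 FPKM. Besides Chd5 and Chd3, the family lay within 0.2 of 0, as did 68.3% of the 9667 genes with a symbol.

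Balances between related genes were computed for 11 pairs, and the Hdac7 and Hdac5 pair differed most. Hdac7 made up 50.9% of the sum of Hdac7 and Hdac5 in hCALR-del52 cells and 69.2% in hCALR cells. Chd4 made up 66.9% of the sum of Chd4 and Chd3 in hCALR-del52 cells and 55.7% in hCALR cells. For Tet3 in the sum with Tet2 the shares were 64.3% in hCALR-del52 cells and 59.2% in hCALR cells. The other 8 pairs differed by at most 3.83 percentage points, and Ezh2 made up 85.4% of the sum with Ezh1 in hCALR-del52 cells and 81.8% in hCALR cells. The shares have no error, and since neither gene of any pair was called, no change of balance was tested.

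**Figure D4:**
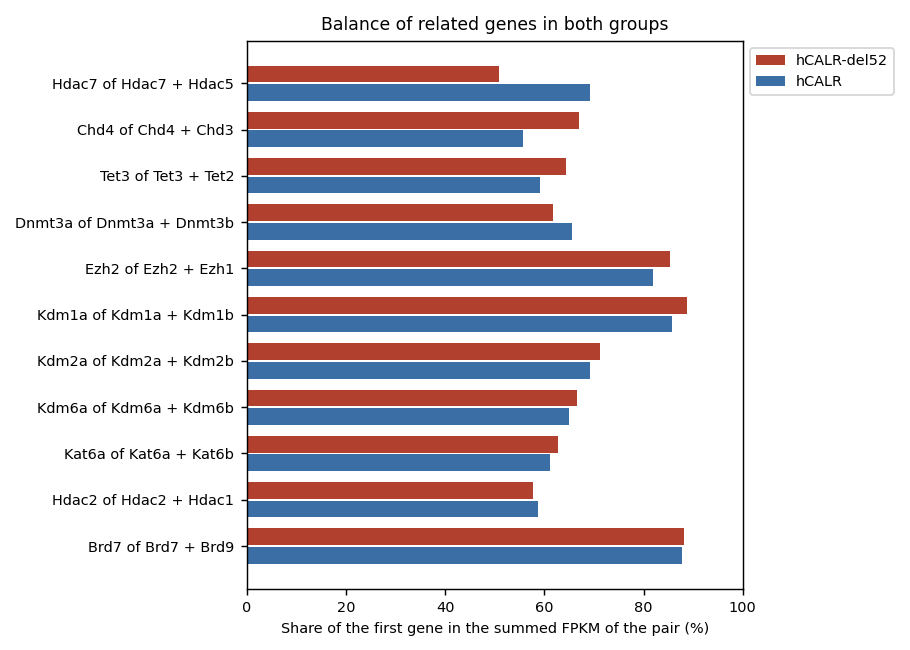
Share of the first gene in the summed FPKM of 11 pairs of related genes, in percent, with the hCALR-del52 bar above the hCALR bar. The Hdac7 and Hdac5 pair (50.9% and 69.2%) and the Chd4 and Chd3 pair (66.9% and 55.7%) show the widest gaps.

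Older symbols hide several genes of these families. By identifier, 80 of 88 protein-coding genes that carry such a symbol in GENCODE M21 have a row, 13 of them under another symbol. Of those 13, Setd8 (now Kmt5a) is a member, and none of the others was called. Setd1a, Hdac10 and Kdm3b are not under older symbols but on rows shared with Hsd3b7, Tubgcp6 and Reep2. The values of those rows belong to both genes. Mll1 (Kmt2a), which methylates lysine 4 of histone H3 and is a target of leukaemia translocations, was at 23.0 FPKM in hCALR-del52 cells and 17.4 FPKM in hCALR cells, with p = 0.301 in the authors' deposited table. Its relative Mll3 (Kmt2c) was at 20.4 FPKM in hCALR-del52 cells and 17.2 FPKM in hCALR cells. Mll2 (Kmt2d) was at 11.9 and 11.0 FPKM in hCALR-del52 and hCALR cells. Suv420h1 (Kmt5b), which acts on lysine 20 of histone H4 after Setd8, was at 34.9 FPKM in hCALR-del52 cells and 40.5 FPKM in hCALR cells, and Suv420h2 (Kmt5c) at 54.1 and 46.1 FPKM. Tet1, Hdac9, Hdac11 and Chd7 have no row by identifier, so no level can be given for them.

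Genes that work with the members were examined in 8 lists of complex partners and other modifiers, with 177 genes measured of 198. Unlike the members, the lists kept genes on chromosome 17 from 30 Mb on, among them Ring1, Dpy30, Mta3, Trerf1, Uhrf1 and Mllt1. All of those named had the lower value in hCALR-del52 cells, though the values of Uhrf1 were nearly equal. Of the 177 genes 1 was called, 0.565%, beside 1.84% of all rows. That gene was Mllt3, which encodes the YEATS domain reader AF9, a partner of the DOT1L methyltransferase and a fusion partner of Mll1 in leukaemia (chromosome 4, 87769925 to 88033364). It was at 4.27 FPKM in hCALR-del52 cells and 0.782 FPKM in hCALR cells, 5.46-fold higher in hCALR-del52 cells. In the authors' deposited table its log2 difference was 2.45 with p = 5e-05 and q = 0.00161, and with the Benjamini-Hochberg adjustment repeated over all rows the adjusted p was 0.00548. The hCALR value lies under 1 FPKM, so the fold rests on a value close to 0. The median log2 ratio of the 177 genes was 0.02, and 174 lay within 0.5 of 0.

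The lists differed little in their medians, from -0.03 to 0.04. The median and mean differed in sign for the COMPASS list (-0.03 and 0.0031) and for the arginine methyltransferases (-0.0080 and 0.01, or 0.0031 and 0.02 when rescaled). Among 27 Polycomb partners, 0 were called, and the farthest were Pcgf2, a PRC1 subunit, at 29.9 FPKM in hCALR-del52 cells and 23.3 FPKM in hCALR cells, and Cbx8 at 6.89 and 8.81 FPKM. Among 27 COMPASS subunits and other methyltransferases, 0 were called, with Mll1 and Whsc1 the farthest, and Whsc1, a writer of lysine 36 methylation, was at 46.7 FPKM in hCALR-del52 cells and 36.8 FPKM in hCALR cells. Among 7 arginine methyltransferases, 0 were called, and the symmetric arginine methyltransferase Prmt5 was at 58.2 FPKM in hCALR-del52 cells and 50.9 FPKM in hCALR cells and Prmt7 at 17.8 and 19.6 FPKM. Among 28 other acetyltransferases and subunits, 0 were called, with Phf16 at 6.86 FPKM in hCALR-del52 cells and 4.71 FPKM in hCALR cells and Tada2a, a SAGA subunit, at 15.8 and 18.4 FPKM.

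Among 23 deacetylase corepressor subunits, 0 were called, and the NuRD subunit Mta1 was at 64.5 FPKM in hCALR-del52 cells and 51.8 FPKM in hCALR cells. Among 24 SWI/SNF and ISWI genes, 0 were called, with Arid1a, a DNA-binding subunit, at 46.5 FPKM in hCALR-del52 cells and 38.7 FPKM in hCALR cells and Dpf2 at 84.8 and 96.7 FPKM. Among 12 DNA methylation partners, 0 were called, and Gadd45a, a stress-induced gene linked to demethylation, was at 64.1 FPKM in hCALR-del52 cells and 102 FPKM in hCALR cells, with p = 0.0596 in the authors' deposited table. In the same list Ogt, which binds TET proteins, was at 85.3 FPKM in hCALR-del52 cells and 113 FPKM in hCALR cells. Idh2, a mitochondrial isocitrate dehydrogenase, lay about as far to the other side of 0, at 102 FPKM in hCALR-del52 cells and 77.0 FPKM in hCALR cells. Of these 12 genes 4 lay above 0 and 8 below, or 6 and 6 when rescaled. In the last list, of 29 other demethylases and readers, Mllt3 was called and Sp100, a nuclear body protein, was at 29.1 FPKM in hCALR-del52 cells and 20.2 FPKM in hCALR cells (p = 0.382 in the authors' deposited table). On the other side of 0 was Mllt1, which encodes a YEATS domain relative of Mllt3. Mllt1 was at 21.4 FPKM in hCALR-del52 cells and 29.1 FPKM in hCALR cells (p = 0.0907 in the authors' deposited table). It lies on chromosome 17 (56891147 to 56935516), within the stretch that was left out of the members. Sp110, a relative of Sp100, was at 10.7 FPKM in hCALR-del52 cells and 14.5 FPKM in hCALR cells (p = 0.101 in the authors' deposited table). Idh2, Mllt1 and Sp110 were chosen after their values were seen, and of the 29 genes 18 lay above 0 and 11 below.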

How the data were processed

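Total RNA of 3 samples per group was sequenced, and groups were taken from the sample titles. The submitters' processing notes name TopHat2 2.0.9, Bowtie2 2.1.0 and Cuffdiff 2.1.1, and mm10 as the genome. Per the file headers, annotation came from Ensembl, and rows of low expression or strong variability (outliers) were dropped by the authors. The authors deposited an FPKM value per group, the log2 of the FPKM ratio, and a test statistic and a rank (a score each, of which the rank was not used). The p-value of each row and its Benjamini-Hochberg q-value are those of the authors' Cuffdiff test, per the file headers. Depth is unknown, and no value per sample was used.

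Computed here with Python 3.11.15 and pandas 2.3.3 were log2 ratios with a pseudocount of 1, which understates changes of low genes, counts at q under 0.05, sums, shares and a repeated Benjamini-Hochberg adjustment, which was tested on simulated data. Families, pairs and sets by substrate are groupings made for this description. The table's starts count from 0 and 1 was added, which made 40.9% of 10962 rows match GENCODE M21, against 1.07% without. Members without a single-identifier row were left out. The members, lists and rules were chosen with earlier results of these data known. Named genes are the 8 highest and the 8 lowest members by ratio, the most and the least abundant of each family, a fixed set, and up to 2 genes per partner list with any called gene. Some genes this rule names are not reported here. Pairs, substrate sums, older symbols and the promoters shown were chosen after values were seen.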

Additional observations from a re-analysis of the deposited data

How the results depend on the processing

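No member was called under any of the 8 alternatives: a q under 0.01, Benjamini-Hochberg or Bonferroni adjustment over all rows, at least a 2-fold difference, at least 1 FPKM in both groups or 5 FPKM in either, rows with several identifiers added, and rows of chromosome 17 added. Bonferroni adjustment called 0 of 12615 rows, so that alternative says nothing about the members. The q under 0.01, the 2-fold rule and both FPKM minima can only remove calls, so their result was fixed by the main one. The Benjamini-Hochberg adjustment over all rows was also stricter, with 1.36% of rows called against 1.84%. Only the alternatives that added rows could have raised the count. The median log2 ratio of the members ranged from 0.02 to 0.03 over 6 alternatives, among them pseudocounts of 0.1 and 0 and a rescaling that shifted all values by 0.01. Family medians moved by less than 0.05 in each alternative. No named member changed side with the other pseudocounts. With the rescaling, tried for single genes and sides only after seeing the data, Hdac3 turned to 0.0081 and Kat2a to 0.00064 and no other named member changed side. It also turned the median of the DNA methylation partners from -0.01 to 0.00020 and that of the arginine methyltransferases from -0.0080 to 0.0031. Mllt3 kept its call when the adjustment covered all rows. No paired analysis was possible because each group is a single deposited column, which also left no replicate to omit. Changes under 1.75-fold were not called in any row.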

Other observations

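The rows left out by the rule hold 7 further genes of these families, 4 of them on chromosome 17 from 30 Mb on, and none was called. Kdm4b, a demethylase of lysine 9 and lysine 36 of histone H3, was at 19.3 FPKM in hCALR-del52 cells and 39.1 FPKM in hCALR cells, 2.03-fold higher in hCALR. The authors' deposited table gave it p = 0.0113 and q = 0.146. Kat2b (PCAF), a relative of Kat2a, was at 21.5 FPKM in hCALR-del52 cells and 29.2 FPKM in hCALR cells. Brd2, a BET reader, was at 124 FPKM in hCALR-del52 cells and 161 FPKM in hCALR cells. The other 3 genes stand on rows with several identifiers, so that each value is shared with a second gene. The row of Hdac4 was at 5.44 FPKM in hCALR-del52 cells and 4.48 FPKM in hCALR cells, 1.21-fold higher in hCALR-del52 cells, that of Kat8 at 51.8 and 47.7 FPKM and that of Sirt7 at 53.1 and 55.9 FPKM.

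Sirt3 stands on 2 rows with the same identifier and locus. The row used was at 12.2 FPKM in hCALR-del52 cells and 10.8 FPKM in hCALR cells, and the other at 6.04 and 5.34 FPKM. The row of Setd1a also carries the identifier of Hsd3b7 and was at 32.0 FPKM in hCALR-del52 cells and 52.9 FPKM in hCALR cells, with p = 0.212 in the authors' deposited table, so that its value belongs to both genes.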
